A study of Mus musculus with 6 samples.

Results

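The type 2 cytokine axis was followed in sorted mouse skin cells through 10 genes taken by name, all of which had a row among the 23934 genes of the deposited table. They are the ligands Il33, Tslp, Il4 and Il13, the receptors Il1rl1, Il4ra, Il13ra1 and Il13ra2, the transcription factor Stat6 and the secreted target Retnla. RNA was sequenced at day 50 from 3 Zfp750 knockout and 3 control samples. Zfp750, known as ZNF750 in humans, encodes a zinc finger regulator of epidermal differentiation. All 3 knockout samples were labelled fl/fl for the gene, with 1 sample carrying Lrig1-CreER and 2 carrying Lrig1-CreERT2 as +/- alleles, and their Rosa26 genotype was given as -/-. Of the controls, 2 were wt/fl and 1 was wt/wt, again with Lrig1-CreER in 1 sample and Lrig1-CreERT2 in 2, and Rosa26 was -/- in 2 and +/- in 1. Both groups were given 4-hydroxytamoxifen as pups (from day 4 until day 7, or from day 5 until day 8), which activates the recombinase in cells that express Lrig1, a gene of the upper hair follicle and sebaceous gland. The labels state that the mice expressed tdTomato, and the Rosa26 genotypes do not show how. The libraries are called S5, S6, S7 for the knockouts and S2, S3, S4 for the controls, and the values of a gene are given in that order.

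In type 2 immunity, epithelial and stromal cells release the alarmins IL-33 and TSLP, which act on mast cells, innate lymphoid cells and T cells. These cells make IL-4 and IL-13. Both cytokines signal through the shared chain IL-4R alpha and the factor STAT6, while IL-13R alpha 2 binds IL-13 and is known mainly as a decoy. The axis is best known in skin from atopic dermatitis.

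Each library held an estimated 15310161 to 20705441 reads, and values are the authors' normalized counts, in which 3 reads correspond to 2.39 to 3.81. Zfp750 itself was low in the knockouts, at 4.90, 1.82 and 7.16, against 41.9, 3.75 and 314 in the controls, so that 1 control, S3, fell among the knockouts and its label is not checked by this gene. The 9 fibroblast markers summed to 938410 to 1239400 in the knockouts and 2997300 to 8939400 in the controls, and the collagen genes Col1a1, Col1a2 and Col3a1 made up 81.6% to 85.7% of the sum in the knockouts and 93.5% to 95.8% in the controls. The other 6 fibroblast markers summed to 148070 to 206160 in the knockouts and 162040 to 379390 in the controls, with overlapping ranges. The 9 keratinocyte markers summed to 3138 to 22547 in the knockouts and 889 to 24498 in the controls, with Krt5 lowest in control S3 at 62.5. The fibroblast sum exceeded the keratinocyte sum in every library. Fewer cells of a type and less RNA per cell cannot be told apart in such bulk samples.

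Of the 10 genes, 5 rose in the knockout and 0 fell. They were the alarmin gene Il33, its receptor gene Il1rl1, the cytokine gene Il13, and the receptor genes Il4ra and Il13ra2. Il13ra1, Stat6, Tslp and Retnla did not pass the test, and Il4 was too low to be tested. Of all 15935 genes tested, 6.71% were called, 4.12% as higher and 2.59% as lower in the knockout. Calls are from limma at a Benjamini-Hochberg adjusted p under 0.05. The groups did not overlap for 6 of the 10 genes, the 5 called ones as higher and Stat6 as lower in the knockout. The same was seen in 28.8% of tested genes, in 15.7% as higher and in 13.1% as lower. Il13 and Il13ra2 passed the filter on low values through the knockout libraries alone, so their entry into the test already required a high knockout level. The fits without 1 library kept the filter as set with all libraries. Without any 1 knockout, Il13 and Il13ra2 would not have passed it anew. Without knockout S6, knockout S7, control S2 or control S3 the number of the 10 genes called was 1, 1, 1 and 2, and it was 5 without knockout S5 and 4 without control S4.

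**Figure D1:**
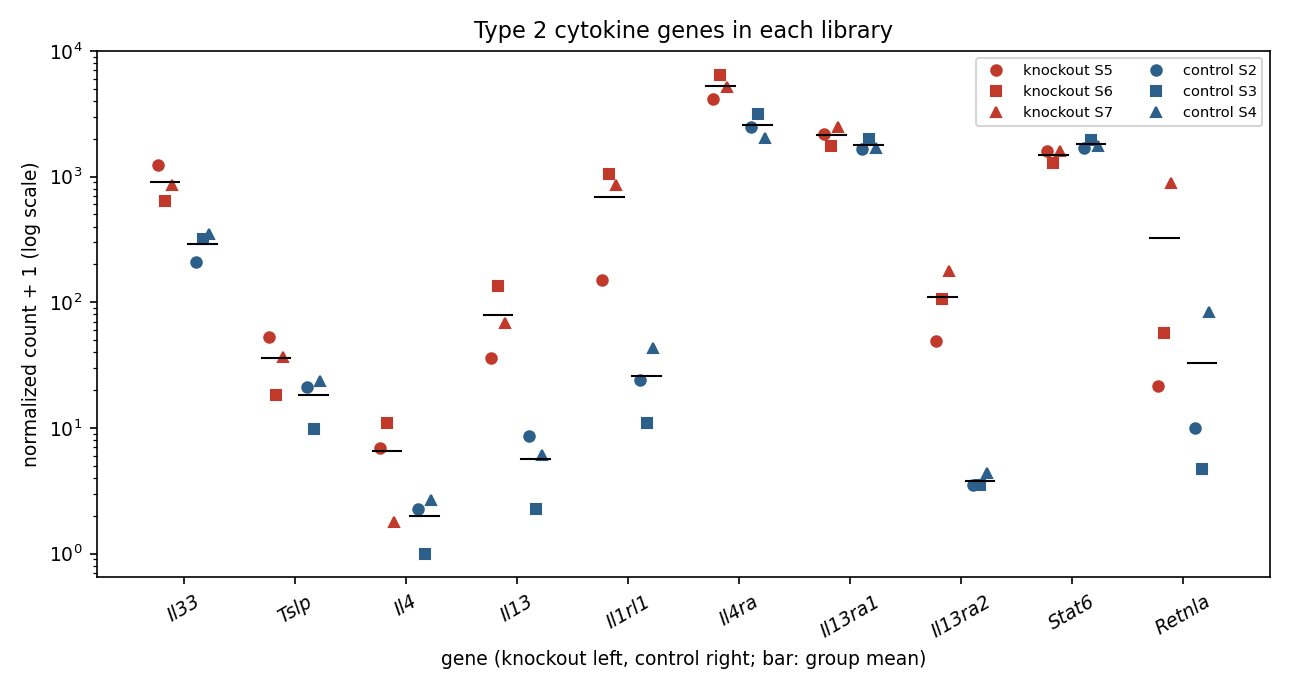
Normalized counts plus 1 (log scale) of the 10 genes in each library, with knockouts in red left of controls in blue and a bar at each group mean. The groups do not overlap for Il33, Il13, Il1rl1, Il4ra and Il13ra2, which are higher in the knockout, and for Stat6, which is lower.

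Il33 encodes a nuclear alarmin of the interleukin-1 family (ENSMUSG00000024810, chromosome 19, 29925114 to 29960718 on the plus strand of GRCm38). It was at 1238, 638 and 855 in the knockouts, against 210, 317 and 350 in the controls. Every knockout library lay above every control library. The mean was 910.3 ± 304 in knockouts and 292 ± 73.4 in controls (SD, n = 3 each), a log2 fold change of 1.59 ± 0.29 (SE; limma adjusted p = 0.0219). The call was lost without knockout S7 or without control S2 or S3, where the log2 fold change was 1.61, 1.37 and 1.66 (limma adjusted p = 0.0655, 0.0810 and 0.0505).

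Tslp encodes thymic stromal lymphopoietin, an epithelial cytokine of the same alarm response. It stood at 52.0, 17.3 and 35.8 in the knockouts, against 20.3, 8.74 and 22.7 in the controls. Knockout S6 lay within the control range, and the log2 fold change was 0.70 ± 0.42 (SE; limma adjusted p = 0.360), with a 95% interval of -0.27 to 1.68 that includes both no change and a rise of the size seen for Il33.

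Il13 encodes the effector cytokine that acts on epithelium, fibroblasts and macrophages. It was at 35.3, 133 and 66.8 in the knockouts, or 36, 146 and 84 estimated reads, against 7.62, 1.25 and 5.05 in the controls, or 6, 1 and 6 reads. All 3 knockout libraries lay above the controls, S6 highest. The log2 fold change was 2.53 ± 0.47 (SE; limma adjusted p = 0.0230). On the pooled reads the ratio of knockout to control was 16.8 (exact 95% interval 9.68 to 32, counting error only). The limma call was lost without S6, S7, S2 or S3 (adjusted p = 0.0785, 0.0733, 0.0706 and 0.0645).

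Il4 lies beside Il13 on chromosome 11 and encodes the other cytokine that acts through Il4ra. It gave 6, 11 and 1 estimated reads in the knockouts, against 1, 0 and 2 in the controls. The groups overlapped through knockout S7, and an exact 2-sided permutation test on the normalized values gave p = 0.3, where the smallest possible is 0.1. That test could therefore not pass at any depth. On the pooled reads, 18 in knockouts and 3 in controls, the ratio of knockout to control was 4.94 (exact 95% interval 1.44 to 26.2), which lies above 1 but covers counting error only and not the spread between libraries.

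Il1rl1 encodes ST2, the receptor for IL-33 (ENSMUSG00000026069, chromosome 1, 40429570 to 40465415 on the plus strand of GRCm38). Its value was 149, 1055 and 863 in the knockouts, against 22.9, 9.99 and 42.1 in the controls. The groups did not overlap, but knockout S5 was far below S6 and S7. The mean was 689 ± 478 in knockouts and 25.0 ± 16.1 in controls (SD, n = 3 each), and the log2 fold change of 4.06 ± 0.73 (SE; limma adjusted p = 0.0207) was the largest of the 9 genes tested on the log2(value + 9.15) scale, on which low genes appear to change less than they did. On pooled reads the ratio of knockout to control was 25.9 (exact 95% interval 20.6 to 33, counting error only), below the ratio for Il13ra2 given further on. The Il13ra2 interval, 19.8 to 92.2, contains that of Il1rl1, so the order of these ratios is not settled. Without S6, S7, S2 or S3 the log2 fold change was 3.56, 3.70, 4.08 and 3.70 and the call was lost (limma adjusted p = 0.0838, 0.0704, 0.0810 and 0.0601). Being a total over the gene, the value does not separate the membrane receptor from the soluble form that the same gene makes.

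Il4ra encodes the chain shared by the receptors for IL-4 and IL-13. It was abundant, at 4159, 6476 and 5209.6 in the knockouts, against 2496, 3175 and 2029 in the controls. The knockout libraries all lay above the controls by a smaller step than for Il1rl1. The log2 fold change was 1.04 ± 0.24 (SE; limma adjusted p = 0.0439), and the call was lost without S6, S7, S2 or S4 (limma adjusted p = 0.144, 0.118, 0.153 and 0.0703).

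Il13ra2 and Il13ra1, the IL-13 receptor genes, both lie on the X chromosome. Il13ra2 encodes the decoy chain (ENSMUSG00000031289, 147383476 to 147429192 on the minus strand of GRCm38) and was at 48.0, 105 and 175 in the knockouts, against 2.54, 2.50 and 3.36 in the controls. The control values stand for 2, 2 and 4 estimated reads, so the controls were at or near the floor of 3 reads. The log2 fold change was 3.15 ± 0.44 (SE; limma adjusted p = 0.00871), and only the fit without S6 lost the call (adjusted p = 0.0510). The calls kept without S5 and without S7 rest on the filter set with all libraries, which Il13ra2 would not have passed anew there. The ratio of pooled reads, knockout to control, was 39.5 (exact 95% interval 19.8 to 92.2, counting error only). Il13ra1 encodes the chain that pairs with IL-4R alpha to signal. It was at 2194, 1740.0 and 2467 in the knockouts, against 1657, 1976 and 1702 in the controls, and these ranges overlapped. Its log2 fold change was 0.25 ± 0.18 (SE; limma adjusted p = 0.443), with a 95% interval of -0.16 to 0.66.

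Set against Il13ra1 within each library, Il13ra2 stood at 21.9, 60.2 and 70.9 per 1000 normalized counts of Il13ra1 in the knockouts, against 1.53, 1.26 and 1.98 per 1000 in the controls. This ratio does not depend on how the libraries were scaled, and no test was run on it. The decoy transcript remained the rarer of the pair in every library.

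Stat6 encodes the factor that carries the signal of both cytokines to the nucleus. It was at 1603, 1286 and 1585 in the knockouts, against 1700.3, 1966 and 1767 in the controls. The knockouts lay below the controls by a narrow margin, the log2 fold change was -0.28 ± 0.15 (SE), and the test was not passed (limma adjusted p = 0.320). With all libraries rescaled to a common total the log2 fold change was 0.04, and it was -0.28 when that total left out Col1a1, Col1a2 and Col3a1. Stat6 overlaps the gene Nab2 in the table's own coordinates, and no source used here gives whether reads were counted by strand.

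Retnla encodes resistin-like alpha, a secreted protein induced by IL-4 and IL-13 in mouse macrophages. It was at 20.6, 55.6 and 893 in the knockouts, against 8.90, 3.75 and 82.4 in the controls. Knockout S7 alone stood far above the rest, and control S4 was higher than knockouts S5 and S6. The log2 fold change of 2.12 ± 1.28 (SE) did not pass (limma adjusted p = 0.369), and it was 0.66 without knockout S7.

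**Figure D2:**
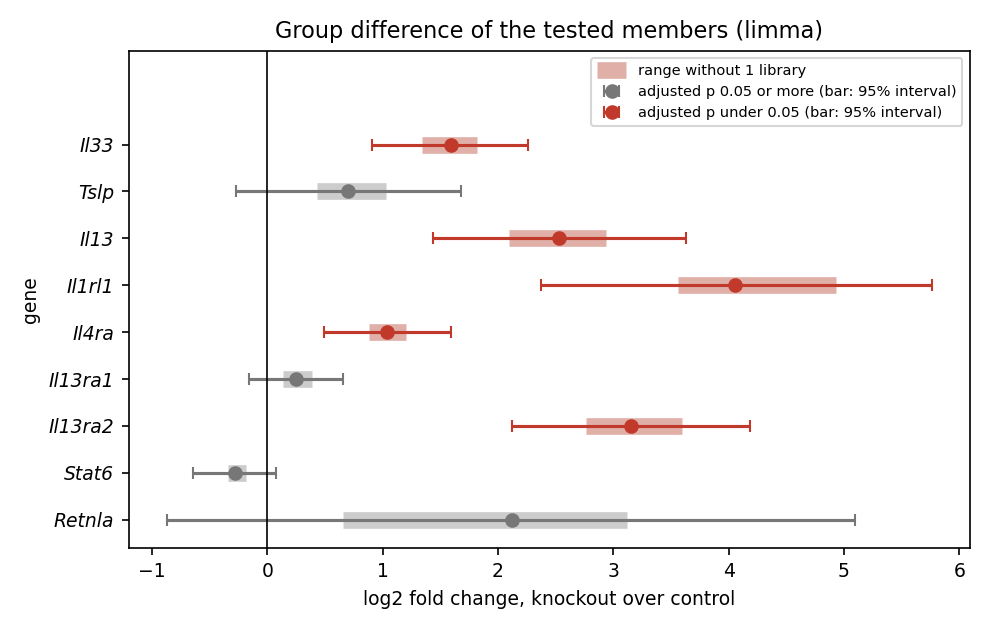
Log2 fold change, knockout over control, of the 9 genes tested, with 95% intervals from limma as thin bars and the range over the 6 fits without 1 library as thick bands. The intervals of the 5 called genes (red) lie above 0, and all bands of these 5 stay above 0.

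Per kilobase of annotated exon, Il4ra had the highest mean level in the knockouts (880.0 normalized counts per kb) and Il13ra1 in the controls (479 per kb). In the knockouts the levels of Il4ra, 693 to 1080.0 per kb, did not overlap those of Il13ra1, 469 to 665 per kb. In the controls these ranges, 338 to 529 and 446 to 532 per kb, overlapped. Stat6 and Il33 followed in the knockouts at means of 339 and 315 per kb, with overlapping ranges of 292 to 364 and 221 to 429. In the controls Stat6 had a mean of 411 and Il33 of 101 per kb, and their ranges did not overlap. Il1rl1 ran from 21.6 to 153 per kb in the knockouts and had a mean of 3.62 per kb in the controls. Il13, Il13ra2 and Tslp had means of 65.1, 47.9 and 26.3 per kb in the knockouts and of 3.85, 1.23 and 13 per kb in the controls. The ranges of these 4 genes overlapped in the knockouts, and Tslp had the highest mean of them in the controls. Il4 had the lowest mean in both groups, but in the controls its range of 0 to 1.37 per kb overlapped those of Il13ra2 and Il13. Retnla, with the shortest exons, ran from 34.4 to 1490.0 per kb across the knockouts and has no firm place in the order.

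Start-site windows of 9 of the 10 genes, all but Tslp, which was left out, were read from RefSeq on GRCm38.p6. These 12 windows each ran from 250 bases before to 50 bases after a start. They were searched on both strands for the STAT6-type spacing TTCNNNNGAA, for the spacing TTCNNNGAA of other STAT factors, and for the GATA-type letters AGATAA, with T allowed as the first base and G as the last. These letters occur in 6.95%, 8.30% and 29.8% of the 32851 windows of all genes, in that order. Of the 12 windows, 3 held the STAT6-type spacing, those of the first of 2 Il33 starts, of Retnla and of 1 of 2 Il4 starts, and 1 held the spacing of other STAT factors, at the other Il4 start. The GATA-type letters were found 5 times in the first of the 2 Il1rl1 windows and 1 time in the second. A count of 5 or more was reached by 0.0548% of all windows. That cutoff was taken from the count in the Il1rl1 window itself, so the share is not a test. Both Il4 windows and those of Il13 and Il13ra2 also held 1 GATA-type match each. Windows of Il33, Retnla and Il1rl1 were chosen for display with the matches known, and the windows of Il4, Il13 and Il13ra2, which also held matches, are not shown. Capitals mark the STAT6-type match in Il33 and Retnla and the GATA-type matches in Il1rl1, and no match overlapped another.
Il33, first window, chr19:29924863-29925162, plus strand: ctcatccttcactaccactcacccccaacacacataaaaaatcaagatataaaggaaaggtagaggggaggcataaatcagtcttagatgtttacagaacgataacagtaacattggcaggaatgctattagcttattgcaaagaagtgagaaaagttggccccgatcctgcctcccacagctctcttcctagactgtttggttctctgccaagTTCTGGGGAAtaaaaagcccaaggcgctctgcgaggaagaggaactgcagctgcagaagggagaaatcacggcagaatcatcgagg
Retnla, chr16:48842359-48842658, plus strand: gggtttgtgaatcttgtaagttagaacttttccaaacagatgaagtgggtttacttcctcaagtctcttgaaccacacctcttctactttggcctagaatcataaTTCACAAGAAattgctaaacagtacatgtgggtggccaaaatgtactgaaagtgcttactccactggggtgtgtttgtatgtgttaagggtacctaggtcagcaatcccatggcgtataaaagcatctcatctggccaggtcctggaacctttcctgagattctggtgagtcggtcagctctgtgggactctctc
Il1rl1, first window, chr1:40429320-40429619, plus strand: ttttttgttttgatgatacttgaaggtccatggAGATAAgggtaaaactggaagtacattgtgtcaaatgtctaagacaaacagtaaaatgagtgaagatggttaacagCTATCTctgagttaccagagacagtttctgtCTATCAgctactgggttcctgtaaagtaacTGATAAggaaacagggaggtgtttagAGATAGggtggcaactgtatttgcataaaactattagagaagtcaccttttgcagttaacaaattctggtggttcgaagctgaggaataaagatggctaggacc
Il1rl1, second window, chr1:40439379-40439678, plus strand: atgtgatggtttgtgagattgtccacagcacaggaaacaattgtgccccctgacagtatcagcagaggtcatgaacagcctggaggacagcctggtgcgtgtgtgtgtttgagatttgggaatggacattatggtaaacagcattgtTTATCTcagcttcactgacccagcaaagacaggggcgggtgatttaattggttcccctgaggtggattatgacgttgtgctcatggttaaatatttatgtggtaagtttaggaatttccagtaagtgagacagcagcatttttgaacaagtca
The match in Il33 begins 36 bases before the start and that in Retnla 145 bases before it. In the first Il1rl1 window the matches begin 217, 141, 110, 80 and 54 bases before the start, and the single match of the second window begins 103 bases before it. The table gives 1 value per gene, so use of the 2 Il1rl1 starts was not measured.

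Around these genes stand other receptor chains, listed here as partner receptors. Some bind a ligand of the axis, as Crlf2 binds TSLP. Others, among them Osmr, Csf2rb, Csf2rb2 and Il3ra, serve cytokines outside the 10 genes. Of 11 partner receptors tested, 6 rose and 0 fell, where 4.12% of all genes tested rose and 2.59% fell. Their median log2 fold change was 1.27, against a median of 0.01 over all genes tested. Osmr, a chain of the receptors for oncostatin M and IL-31, was at 4195, 4763 and 3614 in the knockouts and at 1746, 1483 and 1149.7 in the controls (log2 fold change 1.53 ± 0.20 SE, limma adjusted p = 0.00700), a call held in all 6 fits without 1 library. Crlf2, the chain that binds TSLP, was at 319, 279 and 469 in the knockouts and at 114, 170 and 135 in the controls (1.27 ± 0.25, limma adjusted p = 0.0289), a call lost without S5, S6, S7 or S2 (adjusted p = 0.0568, 0.0649, 0.0719 and 0.116). Tslp itself did not pass, and whether the 2 genes differed in their change was not tested.

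Csf2rb is the common beta chain for IL-3, IL-5 and GM-CSF, and Csf2rb2 is its close mouse paralogue for IL-3, so reads may be split between them. Csf2rb had 358, 849 and 1253 in the knockouts against 81.3, 87.5 and 114 in the controls (log2 fold change 2.84 ± 0.42 SE, limma adjusted p = 0.0105). Csf2rb2 had 217, 956 and 1003 in the knockouts against 38.1, 39.9 and 31.9 in the controls (3.73 ± 0.55, limma adjusted p = 0.00997). Both lost their calls without S6 or S2, at adjusted p-values of 0.0506 to 0.0585. Il3ra, the IL-3-binding chain, rose by a log2 fold change of 0.89 ± 0.18 (limma adjusted p = 0.0337), and this call was lost without S5, S7, S2, S3 or S4 (adjusted p = 0.0576 to 0.128). Il7r, which pairs with Crlf2 and was picked with its values known, stood at 48.0, 226 and 441 in the knockouts against 12.7, 6.25 and 47.1 in the controls, and did not pass (limma adjusted p = 0.0859).

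Among 13 signal transducers tested, 2 rose and 1 fell (median log2 fold change 0.29), where 4.12% of all genes tested rose and 2.59% fell. Jak2, a kinase used by the receptors for TSLP and the common beta chain, was at 1654, 2175 and 2004 in the knockouts and at 914, 993 and 831 in the controls (log2 fold change 1.08 ± 0.16 SE, limma adjusted p = 0.0107). Jak3, the kinase bound to the common gamma chain, was at 158, 289 and 485 in the knockouts and at 35.5, 31.2 and 110.2 in the controls (2.28 ± 0.52, limma adjusted p = 0.0458). Irs1, an adaptor that IL-4 receptors can phosphorylate, fell to 3861, 2263 and 2330.3 in the knockouts, against 5619, 8927 and 5541 in the controls (-1.25 ± 0.28, limma adjusted p = 0.0433). These groups did not overlap, yet each call was lost without some libraries: Jak2 without S6 or S2, and Jak3 and Irs1 without S6, S7, S2 or S3 (limma adjusted p = 0.0537 to 0.164 over these fits).

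Of 9 inhibitors of these signals tested, 2 rose and 0 fell (median log2 fold change 0.72), where 4.12% of all genes tested rose and 2.59% fell. Cish, a SOCS-family inhibitor induced by STAT5, was at 539, 1126 and 1263 in the knockouts, against 212, 295 and 336 in the controls (log2 fold change 1.70 ± 0.34 SE, limma adjusted p = 0.0291). Ptpn1, a tyrosine phosphatase, was at 1418, 1502 and 1812 in the knockouts and at 597, 499.6 and 1032 in the controls (1.2 ± 0.27, limma adjusted p = 0.0433). Cish lost its call without S6, S7, S2 or S3 (adjusted p = 0.0710 to 0.117) and Ptpn1 in each fit without 1 library other than control S4 (adjusted p = 0.0715 to 0.158).

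Of 16 tested genes known as targets of IL-4 or IL-13 in macrophages, fibroblasts or epithelium, 3 rose and 0 fell (median log2 fold change 1.37). Over all genes tested, 4.12% rose and 2.59% fell. Timp1, an inhibitor of matrix metalloproteinases, was at 679, 407 and 578 in the knockouts, against 75.0, 94.9 and 51.3 in the controls (log2 fold change 2.77 ± 0.28 SE, limma adjusted p = 0.00274), a call held in all 6 fits without 1 library. Postn, the matricellular protein periostin, was at 109457, 86493 and 82873 in the knockouts and at 10171, 11964 and 24752 in the controls (2.67 ± 0.40, limma adjusted p = 0.0102; adjusted p = 0.0697 without S2). Ptgs1, a cyclooxygenase, rose by 1.39 ± 0.31 (limma adjusted p = 0.0395), a call kept only without control S4 among the fits without 1 library (adjusted p = 0.0694 to 0.147 in the other 5). These genes have other inducers as well, and the list's name does not give the source of their change.

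Targets outside the called ones did not share 1 order of libraries. Chil3, a chitinase-like protein of alternatively activated mouse macrophages, was picked with its values known. It stood at 11.8, 546 and 2602 in the knockouts and at 0 in all 3 controls, and was too low in too many libraries to be tested. The mannose receptor gene Mrc1, also chosen so, was at 349, 371 and 4266 in the knockouts, against 38.1, 52.5 and 301 in the controls (limma adjusted p = 0.136). The eotaxin gene Ccl11, a further such choice, was at 1776, 1100.1 and 1201 in the knockouts, against 2483, 2077 and 1770.3 in the controls (log2 fold change -0.65 ± 0.22 SE, limma adjusted p = 0.138). Among the knockouts Chil3 and Mrc1 were highest in S7, whereas Ccl7, Ccl2 and Egr2, chosen in the same way, were lowest there, at 1077, 623 and 2212.

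Of 7 other type 2 ligands and alarmins listed, 4 had a row and none could be tested. The amphiregulin gene Areg, an epidermal growth factor family ligand, was at 10.8, 37.4 and 39.8 in the knockouts, against 0, 2.50 and 10.9 in the controls. Csf2, which encodes GM-CSF, was at 0, 10 and 8.75 in the knockouts and 0, 1.25 and 0 in the controls. The itch cytokine gene Il31, picked with its values known, ran the other way at 1, 0 and 0 estimated reads in the knockouts, against 4, 2 and 4 in the controls. Il5 was at 2, 6 and 2 estimated reads in the knockouts, against 2, 1 and 0 in the controls, with overlapping groups.

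**Figure D3:**
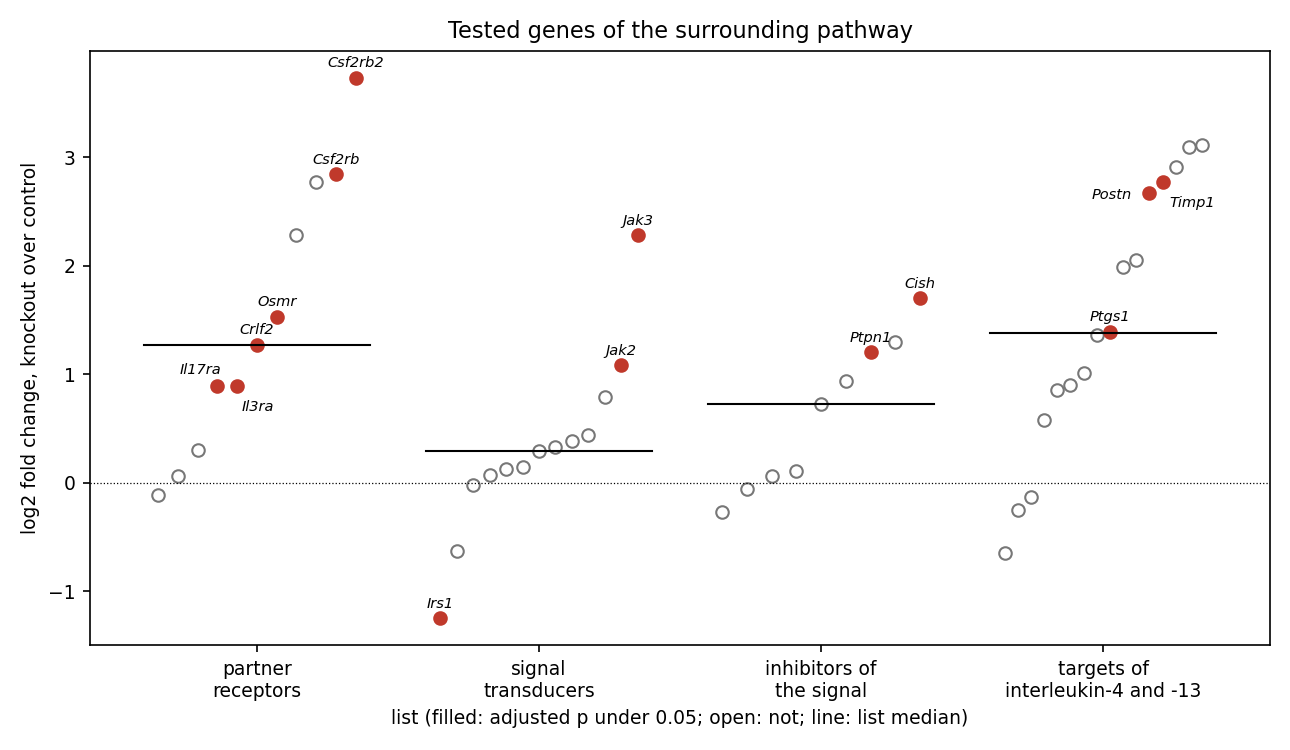
Log2 fold change, knockout over control, of every tested gene of 4 pathway lists, with filled points for genes at an adjusted p under 0.05, open points for the others and a line at each list's median. Partner receptors have 6 filled points, all above 0, and the only filled point below 0 is Irs1.

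Markers of immune cell types also varied between the libraries, and their lists did not share 1 pattern. The 10 mast cell markers summed to 1710.2, 5839 and 2394 in the knockouts, against 83.9, 88.7 and 737 in the controls. Of 9 mast cell markers tested, 5 were called higher (Tpsb2, Tpsab1, Fcer1a, Hdc and Gata2), where 4.12% of all genes tested were. Tpsab1 and Fcer1a were at 0 in all controls, so they entered the test through the knockout libraries alone and had to be higher there. Mast cells are known to express Il1rl1, Il13 and Csf2rb, and innate lymphoid cells and T cells, as stated above, also respond to IL-33 and make IL-13. Gata2, a factor of mast cells that was picked with its values known, was at 77.5, 335 and 321 in the knockouts, against 7.62, 11.2 and 35.3 in the controls (log2 fold change 3.11 ± 0.61 SE, limma adjusted p = 0.0278; not called without S6, S7, S2 or S3, adjusted p up to 0.114). Within the knockouts the sum was highest in S6, as were Il13, Il1rl1, Il4 and Il4ra. Il33, Tslp, Il13ra1 and Stat6 were instead lowest in S6 among the knockouts, and Il13ra2 and Retnla were highest in S7. Control S4 had the highest mast cell sum of the controls and the highest Il1rl1 of the controls, at 42.1, while its Il13 was 5.05.

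Of the 10 genes marking type 2 lymphocytes, 8 were tested and 0 were called, and their sums of 20516, 14039 and 15283 in the knockouts and 16871, 24794 and 12330 in the controls were mostly Thy1 and Rora, which fibroblasts also express. The median log2 fold change of the 8 was 1.82, with 6 positive, against a median of 0.01 over all genes tested. The T cell receptor gene Trac, picked with its values known, was at 15.7, 93.0 and 167 in the knockouts, against 0, 2.50 and 24.4 in the controls. The 5 regulatory T cell markers, 0 called, summed to 346, 983 and 1105 in the knockouts and 239, 310 and 570.2 in the controls. In the controls this sum was mostly Ikzf2, at 205, 289 and 367, which had a log2 fold change of -0.11. The median over the 5 was 1.34, with 4 positive. Of 7 eosinophil markers 4 had a row and 1 was tested and not called, with sums of 13.7, 48.3 and 278 in the knockouts and 25.4, 15.0 and 76.5 in the controls, and Siglecf was at 0 in all controls. The 4 basophil markers summed to 196, 333 and 264 in the knockouts and 449.9, 423 and 409.6 in the controls, and Mcpt8 was at 0 in all controls. The control sums were mostly Itga2, whereas in knockout S6 Fcer1a, at 175, exceeded Itga2, at 82.9. Of 3 basophil markers tested, Itga2 was called lower (limma adjusted p = 0.00711) and Fcer1a higher, with its entry into the test as given above. Over all genes tested, 4.12% rose and 2.59% fell.

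The 9 macrophage markers, 0 called, summed to 2377, 2449.7 and 16903 in the knockouts, against 2283, 2759.9 and 2901 in the controls, and S7, which had the highest sum, also had the highest Retnla. In controls S2 and S3 the sum was mostly Csf1r and Mertk, whose log2 fold changes were -0.78 and -0.58. The other 7 markers had positive ones, and the list median was 2.20, against 0.01 over all genes tested. Every knockout lay above every control for 3 of the 9 (Mrc1, C1qa and C1qb), as for 15.7% of all genes tested. The 5 fat cell markers, of which 3 were tested and 0 called, summed to 169, 643 and 2645 in the knockouts and 72.4, 129.9 and 33.6 in the controls, with S7 again highest. The 7 endothelial markers, 6 tested and 0 called, summed to 1539, 2214 and 6586 in the knockouts and 1622, 1389 and 2244 in the controls. Of the 9 fibroblast markers 2 rose, Pdgfra and Pdgfrb, and of the 9 keratinocyte markers 1 fell, Krt10 (limma adjusted p = 0.0165, 0.0384 and 0.0496). Over all genes tested, 4.12% rose and 2.59% fell. Pdgfra lost its call without S6, S7 or S2, Pdgfrb in every fit without 1 library, and Krt10 in each such fit other than that without S5. The part of any of these cell types in the values of the members was not tested.

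**Figure D4:**
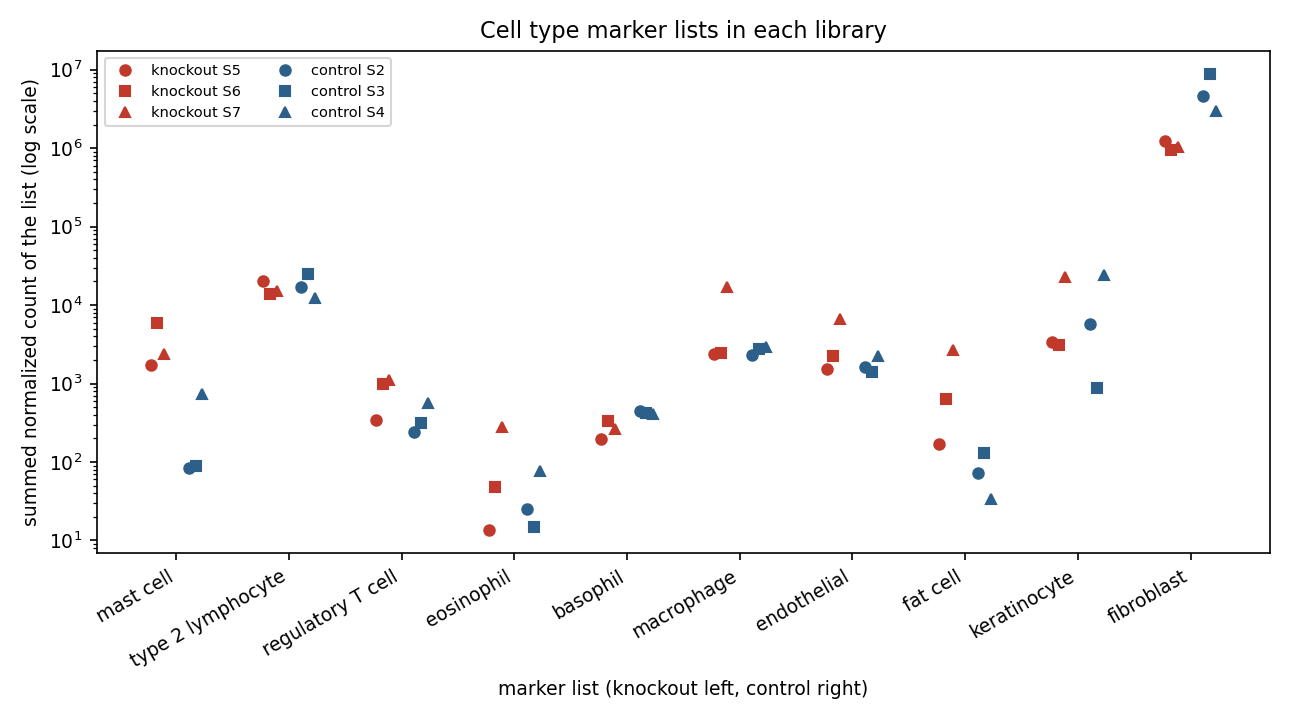
Summed normalized counts (log scale) of 10 cell type marker lists in each library, with knockouts in red left of controls in blue. The mast cell and fat cell sums are higher in every knockout than in every control, the macrophage sum stands out in knockout S7 at 16903, and the fibroblast sum, mostly of 3 collagen genes, is lower in every knockout, while the other 6 fibroblast markers summed overlap between the groups.

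The genes whose levels over the 6 libraries were most like those of 3 members were found by Pearson correlation of log2 levels among 10525 other genes, or 10526 for Il13ra2. For Il33 they were Faxc, As3mt, Pcdhb5, Rara and Lrp5, with r of 0.985 to 0.991, and in each of these knockout S5 was the highest library, as for Il33. For Il1rl1 they were Bmp3, Aif1l, Dgkd, Morc3 and Cry1, with r of 0.993 to 0.999. For Il13ra2 they were Osm, Csf2rb, Slpi, Ldha and St3gal5, with r of 0.994 to 0.996. Osm, which encodes oncostatin M, was at 132, 294 and 521 in the knockouts, against 12.7, 12.5 and 7.57 in the controls. With 6 libraries in 2 groups such a correlation largely follows the group difference, and the libraries share their depth and makeup across genes.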

How the data were processed

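RNA was sequenced from sorted skin cells of 3 Zfp750 knockout and 3 control samples. The authors deposited 1 table of normalized counts per gene, a signal per gene that looks like estimated reads over a size factor of each library. In each library 78.7% to 81.2% of values up to 1000 reads were whole multiples of 1 step within a tolerance of 0.05, so count models were not run. Per the submitters' processing notes, TopHat2 2.1.0 and Partek 9.0.20.0202 were used, in roles not stated. No source used here gives the genome build or the strandedness of counting. Of the table's gene IDs 97.0% occur in GENCODE M21 of GRCm38, 2.20% of these with the same start, so positions are from GRCm38 by gene ID and exon lengths are unions of its exons.

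The value columns name a group, and the labels tie the numbers in the column names to no sample. The labels do not state that libraries come from separate mice, so the spread behind each p-value may be technical. Log2(value + 9.15), in which 9.15 is 0.5 per 1000000 of the mean library total, was fitted with limma 3.58.1 in R 4.3.3 (intensity trend, 2-sided). Genes at 1 per 1000000 or more in at least 3 libraries were tested, 15935 in all, and p-values were adjusted over all of them by the Benjamini-Hochberg method. Fold changes on this scale understate the change of low genes. Exact intervals on reads are at 95% and, like floors of 3 reads, cover counting error only.

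The members and lists were chosen with earlier results of these data known. Named genes are the members, up to 5 called genes of each pathway list by adjusted p or the 2 highest where none was called, the 5 genes most like each of 3 members, and marker genes at 0 in a group. Other marker genes were named after their values were known. Alternatives were 2 other pseudocounts, no filter and a stricter filter, 2 rescalings, no intensity trend, array quality weights, leaving out each library and, added after seeing the data, a block on the column numbers.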

Additional observations from a re-analysis of the deposited data

How the results depend on the processing

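Il33, Il13, Il1rl1, Il4ra and Il13ra2 stayed higher in the knockout in every alternative that tested them. Leaving out 1 library at a time gave 1 to 5 called members, 2 to 15 called genes over the pathway lists (14 with all libraries) and 337 to 1285 called genes over the table (1070 with all). In these fits the log2 fold change was 1.34 to 1.82 for Il33, 2.1 to 2.94 for Il13, 3.56 to 4.93 for Il1rl1, 0.88 to 1.2 for Il4ra and 2.76 to 3.60 for Il13ra2, and the mean of Il13ra2 per 1000 of Il13ra1 in the knockouts was 41.1 to 65.6, against 51.0 with all 3. The fit without S6 kept Il33 alone, those without S7 or S2 kept Il13ra2 alone, and that without S3 kept Il13ra2 and Il4ra. In fits without a knockout, Il13 and Il13ra2 were tested only because the filter was set with all libraries. A filter at 5 per 1000000 left 3 called members, because Il13 and Il13ra2 were not tested. Without the intensity trend Il4ra, at 1.04, was not called (limma adjusted p = 0.0686) and 8 pathway genes were called. Array quality weights gave 22 called pathway genes and 1997 called genes in all. Rescaling to a common total moved the median log2 fold change of all genes to 0.31, against 0.01 as deposited, and gave Stat6 a log2 fold change of 0.04. The share of called genes that were higher was 78.9% under that rescaling, against 61.4% as deposited. Rescaling to a common total that left out Col1a1, Col1a2 and Col3a1 gave a median of 0.01, a share of 54.2% and a Stat6 log2 fold change of -0.28. The cause of these shifts, other than that of the filter, was not tested. For the called pathway genes, 155 of the values under alternatives kept the call and 55 did not, with the direction kept in all of them. The column names hold numbers, of which 2 occur in both groups (S6 with S2, S7 with S3), and nothing in the labels says that they pair samples. Deviations from the group means correlated at 0.25 and -0.22 in these pairs. With that number as a replicate block, an alternative chosen after seeing the data that leaves 1 residual degree of freedom, 4 members were called, Il4ra at 1.04 being lost (limma adjusted p = 0.0593), with 19 pathway genes and 1527 genes in all. Knockout S5 and control S4, whose numbers occur in 1 group only, do not bear on the fold changes of this fit. They rest on S6 with S2 and S7 with S3, and that of Il1rl1 was 5.28. Il4, at 0 to 11 reads per library, and the control level of Il13ra2, at 2 to 4, rest on few reads.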
